A study of Mus musculus with 6 samples.

Results

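Tendon and joint surface markers are 7 genes of tenocytes, the cells of tendon, and of the gliding surface of a joint and its cartilage: Tnmd, Scx, Mkx, Prg4, Cilp, Chad and Cnmd. They were taken as all probe sets annotated to these symbols, which gave 8 of the 45037 probe sets that are not Affymetrix controls and 7 of the 18193 genes with a probe set of their own. Scx had 2 probe sets and every other gene 1. The genes serve as a check on tissue carried over with the bone, since neither tendon nor joint surface is part of the inner wall of the femoral shaft. Chad is also made in bone, so its signal alone is no such check.

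The 6 arrays came from femurs of 3 male C57BL/6 mice aged 8 weeks, all injected intraperitoneally with saline. Per the labels' protocols, each bone was scraped and rubbed clean of muscle and periosteum, its metaphyses were cut off, and the shaft was flushed with buffered saline. The pelleted flushed cells gave the central bone marrow RNA (3 arrays, A to C). Trizol passed through the emptied shaft gave the endosteal RNA (3 arrays, A to C), which is what that reagent lysed and not a sorted cell type. In such bulk RNA, more cells of a type and more RNA per cell cannot be told apart.

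Tendon forms from progenitors that express the transcription factor Scx, and Scx and the homeobox factor Mkx keep up the genes of tendon matrix. Tnmd, a membrane glycoprotein of mature tenocytes, depends on Scx and is the usual marker of the differentiated cell. At the joint surface, cells of the superficial zone and the synovial lining secrete the lubricant Prg4, whereas Cilp, Chad and Cnmd belong to cartilage at other depths.

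Members were low on these arrays. The mean signal over 6 arrays was below 226, the median of that mean over genes, for all 7. Neither central array values nor the signals of Scx and Mkx on any array reached the median signal of the array concerned. On endosteal arrays, Prg4 was above that median on 3 of 3 arrays, Tnmd, Cilp and Cnmd on 2 and Chad on 1.

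In the comparison of regions, 3 of the 7 genes rose in endosteal RNA (Prg4, Cilp and Chad), 0 fell and 4 did not pass (limma, adjusted p under 0.05 over all genes). Of all genes tested, 7.92% were called higher and 4.02% lower, and among the genes with a mean signal under the median gene 7.14% were called higher. The median log2 change of the 7 genes was 1.54, against 0.10 over all genes. The 3 endosteal arrays all lay above the 3 central arrays for 4 of the 7 genes, which was so for 22.3% of all genes. When each probe set was tested on its own, 2 of 8 were called higher, those of Cilp and Chad, against 3.21% of all probe sets called higher and 1.29% lower. Higher genes made up 66.3% of all calls as deposited but 34.7% after each array was centred on its median, and the same 3 members were called with either scaling.

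The promoters of Tnmd, Cilp and Chad are shown because the 3 genes read higher on every endosteal array than on any central one, and Scx, a regulator of tendon genes, binds E-boxes. RefSeq promoter windows (GRCm38.p6) were found for 4 of the 7 members, with Cnmd the other. Each line gives the 250 bases before the gene start, 5′ to 3′, at chrX:133850758-133851007, chr9:65264930-65265179 and chr11:94564797-94565046, all on the plus strand, with E-boxes (CANNTG, which reads the same on both strands) in capitals.
Tnmd: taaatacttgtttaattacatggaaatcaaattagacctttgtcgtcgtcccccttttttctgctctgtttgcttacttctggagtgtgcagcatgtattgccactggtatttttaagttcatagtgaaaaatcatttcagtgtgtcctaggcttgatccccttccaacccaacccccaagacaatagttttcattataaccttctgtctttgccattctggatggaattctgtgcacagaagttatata
Cilp: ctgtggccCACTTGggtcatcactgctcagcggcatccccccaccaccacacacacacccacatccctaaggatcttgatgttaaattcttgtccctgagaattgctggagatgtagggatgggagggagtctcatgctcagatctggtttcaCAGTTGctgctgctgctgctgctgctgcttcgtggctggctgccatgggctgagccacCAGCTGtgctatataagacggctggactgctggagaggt
Chad: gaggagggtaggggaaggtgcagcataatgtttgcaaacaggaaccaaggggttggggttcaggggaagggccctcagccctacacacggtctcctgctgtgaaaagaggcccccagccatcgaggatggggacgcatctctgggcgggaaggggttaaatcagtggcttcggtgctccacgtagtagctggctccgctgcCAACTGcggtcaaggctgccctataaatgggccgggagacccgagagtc
The Cilp window held 3 matches, at 242, 97 and 39 bases before the gene start, and the Chad window held 1, CAACTG, at 49 bases before it. The Tnmd window held 0. Of 32851 promoter windows of this length, 66.2% held at least 1 match, so a match in these windows is a common feature. These letters describe the windows and no binding was measured.

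**Figure D1:**
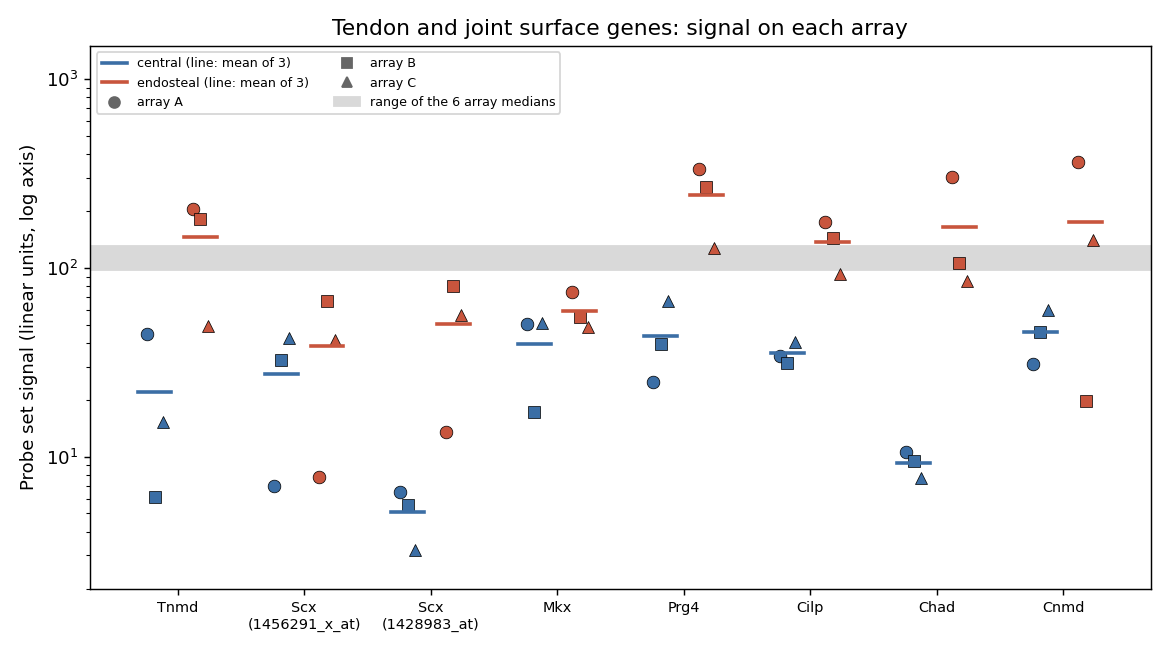
Signal of each member probe set on the 6 arrays (linear signal on a log axis; circles, squares and triangles are arrays A, B and C; lines are means of 3 arrays; the grey band spans the 6 array medians). Endosteal points of Tnmd, Prg4, Cilp, Chad and Scx (1428983_at) lie above all central points of the same probe set, and those of Cnmd spread from 19.7 to 364.

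The transcription factors of tendon gave low signals in both regions. Scx is measured by 2 probe sets that differed. The probe set 1456291_x_at, which has the higher mean and stands for the gene, had signals of 7.02 (A), 32.6 (B) and 42.8 (C) in central samples. The endosteal samples read 7.76 (A), 66.6 (B) and 41.7 (C). The regions overlapped, and array A was the low one in each. Its log2 change was 0.26 (SE 0.57, 95% interval -1.16 to 1.68, adjusted p = 0.803), and the direction turned when arrays were centred on their medians (-0.00062). An _x_at probe set can share probe sequences with other transcripts.

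The other Scx probe set, 1428983_at, read 6.49 (A), 5.57 (B) and 3.22 (C) in central samples, against 13.5 (A), 80.5 (B) and 56.5 (C) in endosteal samples. All 3 endosteal arrays were above the central ones, although endosteal A was below a signal of 16, the constant added before taking logarithms. Its log2 change was 1.49 (SE 0.45) and did not pass in the fit over probe sets (adjusted p = 0.125). It passed in 3 of 14 alternatives, when endosteal array A was left out (1.99, adjusted p = 0.0361) and in both forms of poly-A control scaling (1.83 and 1.95), and its adjusted p ran from 0.0189 to 0.281 over all 14. Of all 45037 probe sets, both forms of poly-A scaling called many higher (9835 and 18829), against 1444 in the main fit. A pass there is thus common. Leaving out endosteal array A called 585 higher.

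Mkx, the Mohawk homeobox factor, gave 50.5 (A), 17.3 (B) and 51.1 (C) in the marrow flushed out, and 74.3 (A), 55.1 (B) and 48.8 (C) at the endosteum. Central B stood low and the other values overlapped between regions. The log2 change was 0.50 (SE 0.32, 95% interval -0.30 to 1.30, adjusted p = 0.371). The change was 0.16 without central array B (adjusted p = 0.684) and 0.16 after quantile normalisation (adjusted p = 0.812). With scaling to the poly-A controls it was 1.03 and passed in the gene fit (adjusted p = 0.0486) but not in the fit over probe sets (adjusted p = 0.0702). That scaling called 6643 of 18193 genes higher and moved the median change of all genes to 0.72. The pass is thus not particular to Mkx.

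Tnmd and Cnmd encode a related pair of membrane proteins, tenomodulin of tendon and chondromodulin of cartilage, whose extracellular ends inhibit the growth of vessels. Central samples gave Tnmd signals of 44.6 (A), 6.08 (B) and 15.2 (C). In endosteal samples they were 206 (A), 182 (B) and 49.3 (C). Endosteal C (49.3) was little above central A (44.6), so the regions were separate by a narrow margin. The mean went from 22.0 ± 20.1 to 146 ± 84.4 (SD, n = 3), and the log2 change of 2.03 (SE 0.60, 95% interval 0.55 to 3.52) did not pass (adjusted p = 0.0859). Tnmd passed in 4 of 15 alternatives, among them an intensity trend (adjusted p = 0.0326) and leaving out endosteal array C (2.59, adjusted p = 0.0462). Over all 15, its adjusted p ran from 0.00877 with poly-A scaling without Trp to 0.218 without central array B (1.71), and it was 0.112 with the block. Poly-A scaling without Trp called 10169 of 18193 genes higher, the intensity trend 2215 and leaving out endosteal array C 928.

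For Cnmd, the central samples read 31.0 (A), 45.8 (B) and 59.9 (C), and the endosteal ones 364 (A), 19.7 (B) and 140 (C). Endosteal B was below every central array while A and C were above them. The log2 change was 1.09 (SE 0.86, 95% interval -1.03 to 3.21, adjusted p = 0.459). The interval holds a rise of several fold as well as a log2 fall of up to 1.03, so the direction is open. Without endosteal array A the change was 0.30 and without B it was 2.01, and neither passed. Cartilage genes did not share a single pattern over the endosteal arrays. Of 20 such genes, 12 were highest on A, 4 on B and 4 on C. Endosteal signals of Col2a1 were 2009 (A), 1007 (B) and 1007 (C), and those of Col9a1 were 716, 289 and 186. Col10a1, a collagen of hypertrophic cartilage, was lowest on B, at 167 (A), 30.4 (B) and 65.6 (C). Matn3 was highest on B, at 92.0 (A), 164 (B) and 65.4 (C).

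Prg4, or lubricin, is the proteoglycan that coats cartilage and tendon surfaces and lets them glide. Its signal was 24.8 (A), 39.6 (B) and 66.8 (C) in central samples, and 332 (A), 268 (B) and 128 (C) in endosteal samples. The lowest endosteal array was above the highest central array. The mean rose from 43.7 ± 21.3 to 243 ± 105 (SD, n = 3), a log2 change of 2.08 (SE 0.42, 4.23-fold on the scale of log2(signal + 16), adjusted p = 0.0349). In the fit over probe sets the same values gave an adjusted p of 0.0558.

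Cilp, a matrix protein of the middle zone of articular cartilage that binds growth factors, had central signals of 34.3 (A), 31.2 (B) and 40.6 (C) and endosteal signals of 174 (A), 144 (B) and 93.1 (C). Central arrays lay close together and every endosteal array was above them. The mean rose from 35.4 ± 4.77 to 137 ± 40.9 (SD, n = 3), a log2 change of 1.54 (SE 0.23, 2.91-fold, adjusted p = 0.0179).

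Chad, chondroadherin, is a leucine-rich repeat protein that binds type II collagen and integrins, and it is made in cartilage, tendon and bone. Its central signals were 10.6 (A), 9.49 (B) and 7.73 (C), and its endosteal signals 302 (A), 106 (B) and 85.6 (C). All central values were below 16, and endosteal A was well above endosteal B and C. The mean rose from 9.26 ± 1.43 to 165 ± 120 (SD, n = 3). The log2 change of 2.65 (SE 0.44, 6.26-fold, adjusted p = 0.0222) was 1.52 with a pseudocount of 64 and 3.79 with a pseudocount of 1. The log2 ratio of the 2 mean signals, the study's own measure, was 4.15 for Chad, 2.47 for Prg4 and 1.95 for Cilp.

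These 3 calls depended on the arrays kept and on the block. With the letter shared by a central and an endosteal array as a replicate block, the adjusted p became 0.121 for Prg4, 0.0792 for Cilp and 0.0689 for Chad. Leaving out central A, B or C or endosteal B ended all 3 calls, with adjusted p from 0.0606 to 0.107 for Prg4, from 0.0532 to 0.0690 for Cilp and from 0.0547 to 0.0777 for Chad. Prg4 also missed without endosteal A (adjusted p = 0.0833). The log2 changes in these fits stayed above 0 for all 3 genes. Over all 18193 genes, 1441 were called higher in the main fit and 143 with the block. Where dropping an array ended all 3 calls, from 549 to 730 genes were called higher. With endosteal A dropped the count was 767. A lost call is thus common in these fits and not particular to Prg4, Cilp and Chad. An exact two-sided permutation test of a single gene with 3 arrays against 3 cannot give less than 0.10.

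**Figure D2:**
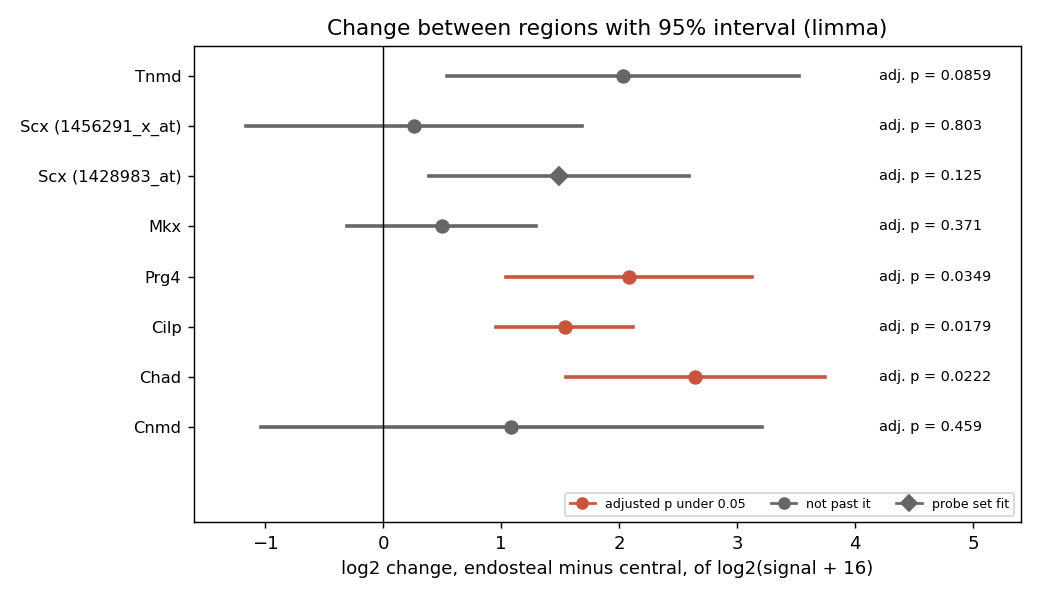
Log2 change between regions (endosteal minus central, of log2(signal + 16)) with its 95% interval from limma for the 7 genes, and for the second Scx probe set from the fit over probe sets. Intervals of Prg4, Cilp and Chad, the genes past the threshold, start at 1.04, 0.96 and 1.55, and those of Mkx, Cnmd and Scx (1456291_x_at) include 0.

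**Figure D3:**
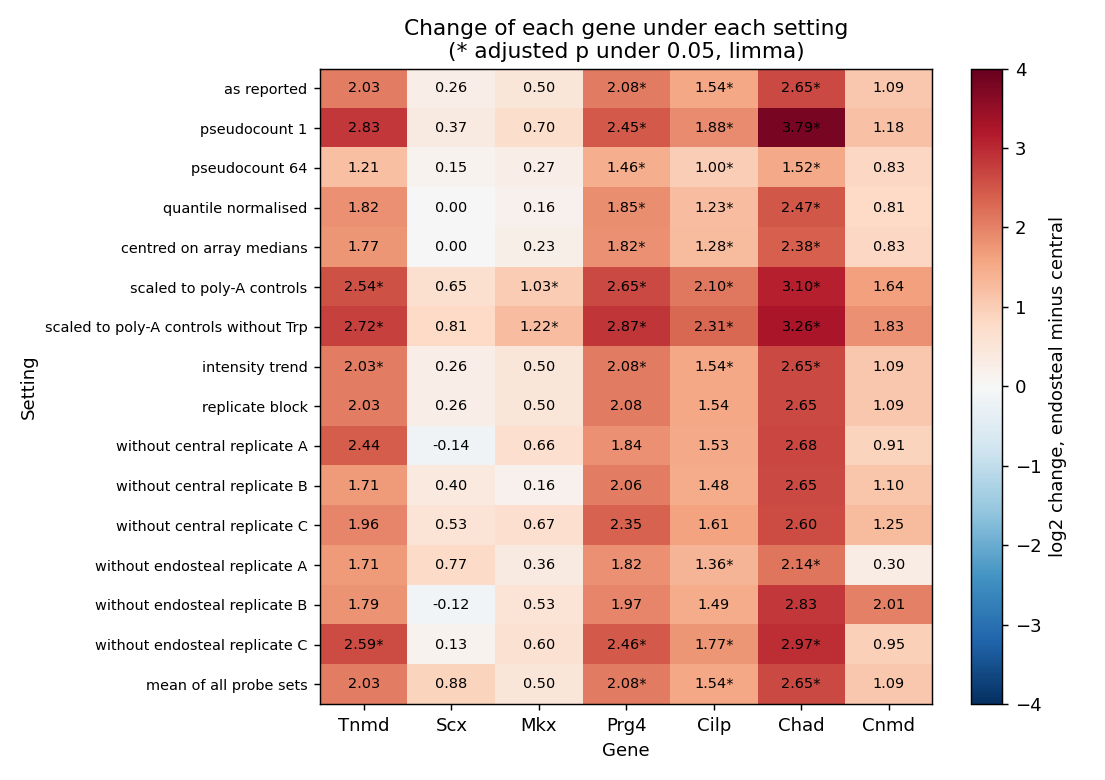
Log2 change of each gene under each setting (colour and printed value; an asterisk marks an adjusted p under 0.05). Prg4, Cilp and Chad stay above 0 in every setting shown, with no asterisk under the replicate block, and Cnmd has no asterisk in any.

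Members were not evenly high over the endosteal arrays. Endosteal A had the highest endosteal signal for 6 of the 7 genes, Scx being the exception, against 34.3% of all genes. Relative to the central mean, the median of the 7 genes was 2.61 on endosteal A, 1.64 on B and 1.09 on C. The same array was highest for 15 of 16 skeletal muscle genes, whose medians were 7.05, 6.16 and 5.97, and for 8 of 11 bone and osteoblast genes, with medians of 4.44, 4.14 and 3.66. Endosteal A was also highest for 14 of 19 other tendon and ligament genes, 10 of 16 synovium and articular surface genes and 12 of 20 cartilage genes. It was highest for 3 of 11 marrow blood cell genes. The part of carried-over muscle, of bone cells or of any other of these tissues in the members' signals was not tested. Without endosteal A the median change of the members was 1.36, and Cilp and Chad were still called.

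**Figure D4:**
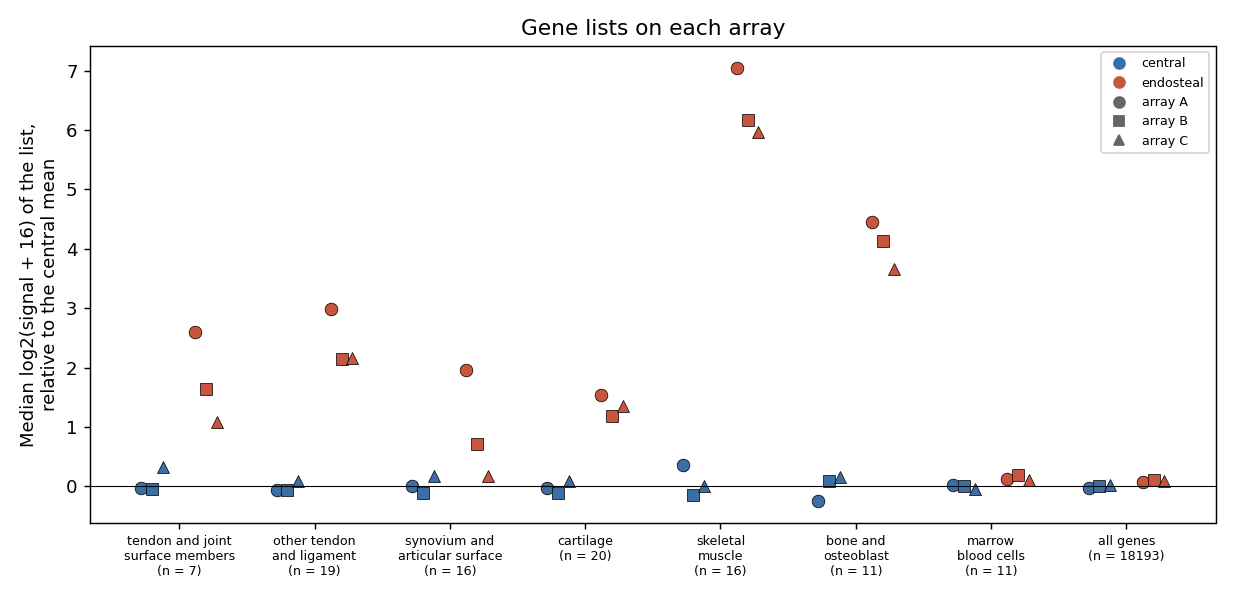
Median log2(signal + 16) of each gene list on each array, relative to the mean of the central arrays (blue central, red endosteal; circles, squares and triangles are arrays A, B and C). Endosteal medians of the 7 members run from 1.09 to 2.61, those of the muscle list from 5.97 to 7.05 and those of the blood cell list from 0.10 to 0.19.

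Of 19 other measured genes of tendon and ligament, 12 were called higher and 0 lower, with a median log2 change of 2.44, and 5 were called with the replicate block. Dcn, decorin, which spaces collagen fibrils, went from 128 ± 35.0 to 3947 ± 615 (SD, n = 3; log2 change 4.80, adjusted p = 0.00173). Col22a1, a collagen of the junction between muscle and tendon, went from 5.84 ± 3.90 to 378 ± 140 (log2 change 4.13, adjusted p = 0.00333). Lox, which crosslinks collagen, rose by 4.01 and Tnc, the glycoprotein tenascin C, by 3.85. Bone and other connective tissue also express Dcn, Lox and Tnc. Under the block, Lox did not pass (adjusted p = 0.0573). Egr1, a transcription factor induced by load in tendon, read 491 ± 29.8 and 583 ± 168 and did not pass (log2 change 0.21, adjusted p = 0.594).

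Of 16 genes of synovium and the articular surface, 5 were called higher and 0 lower, with a median of 1.05 and 1 call with the block. The median was 0.51 without endosteal array A, 0.58 with a pseudocount of 64 and 1.66 with poly-A scaling without Trp. Lum, the keratan sulphate proteoglycan lumican, rose by 5.17, Comp, a cartilage and tendon matrix protein, by 2.36, the protease gene Htra1 by 2.31 and the protease inhibitor gene Timp3 by 2.10. Comp is on the tendon list as well. With the block, Comp and Htra1 had an adjusted p of 0.0549 each and Timp3 one of 0.0622. Cd44, the hyaluronan receptor, and Cd55, a complement regulator of the synovial lining, are also made by blood cells and did not pass (-0.44 and -0.01, adjusted p = 0.138 and 0.972). Other uncalled genes of the list went both ways. Gdf5 (0.004), Erg (-0.07), Sfrp2 (-0.27), Thy1 (-0.40) and Creb5 (-0.70) were flat or lower. Has2 (1.52), Clic5 (1.30), Dpt (1.22) and Cilp2 (0.88) read higher, with overlap between regions. The list as a whole did not rise evenly.

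Cartilage genes showed 6 of 20 called higher and 1 lower, with a median of 1.43 and 3 higher with the block. Col11a1 rose by 4.90, Col2a1 by 4.38, Col11a2 by 2.18 and Col9a1 by 2.09, chains of the collagens that make up the cartilage fibril. Scrg1 fell by 0.97 (adjusted p = 0.0448; no cartilage gene was called lower under quantile normalisation or poly-A control scaling). With the block, Col9a1 had an adjusted p of 0.0948 and Scrg1 one of 0.0820. The median of the list was 0.74 when each gene was the mean of its probe sets. Acan, the aggregating proteoglycan aggrecan, read 27.6 ± 20.8 and 154 ± 96.6 and did not pass (log2 change 1.92, adjusted p = 0.0650). Sox6, the uncalled cartilage gene with the highest signal, read 2231 ± 351 and 1718 ± 472 (log2 change -0.40, adjusted p = 0.367). Ihh (-0.41) and Matn4 (-0.07) also read lower without a call, and the remaining uncalled cartilage genes read higher. Of the growth factor genes tied to tendon and joint, 2 of 11 were higher and 1 lower, against 7.92% and 4.02% of all genes. Tgfb3, a ligand that recruits and maintains tendon progenitors, rose by 2.43 from 9.90 ± 8.15 to 123 ± 40.6 (SD, n = 3), and Bmp4 rose by 2.54. Tgfb1 fell by 1.12 (adjusted p = 0.0126), although under poly-A control scaling 6 genes of this list were called higher and 0 lower. That scaling called 6643 of all 18193 genes higher and 73 lower, so those counts are not particular to the list. With the block, Bmp4 and Tgfb1 had adjusted p of 0.0502 and 0.0603. The median of these 11 genes was 0.77, but 0.46 as means of probe sets, 0.34 without endosteal array B, 0.41 without central array C and 1.33 with poly-A scaling.

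Markers of other tissues were read on the same arrays. The summed signal of the 7 members ran from 182 to 284 on central arrays and from 586 to 1460 on endosteal arrays. Over 16 skeletal muscle genes, of which 16 were called higher (13 with the block; median 6.42), the sum ran from 1129 to 1680 and from 82940 to 167333. Over 11 bone and osteoblast genes, of which 8 were higher (6 with the block; median 4.08), it ran from 2175 to 2895 and from 84380 to 102260. Over 11 marrow blood cell genes, of which 2 were higher and 2 lower (0 and 0 with the block; median 0.13), it ran from 216626 to 229421 and from 310085 to 326953, so blood cell RNA was present on all arrays of both regions. This list joins genes that moved in opposite directions, so its median near 0 does not describe each of them. Ngp (log2 change 0.76) and Camp (0.53) were called higher, and Cd79a (-1.71) and Cd79b (-1.26) lower. Ngp, at a mean of 58010 in central and 98425 in endosteal samples, weighs heavily in the sum. The blood cell median was -0.28 after quantile normalisation (0 higher, 1 lower), -0.13 after centring (0 higher, 4 lower) and 0.86 with poly-A scaling (6 higher, 1 lower). Of all 18193 genes, poly-A scaling called 6643 higher and 73 lower, and centring 951 higher and 1786 lower.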

How the data were processed

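RNA from 3 central and 3 endosteal femur samples was measured on Affymetrix arrays, from 2 micrograms of total RNA labelled with biotin. The deposited values are linear probe set intensities, scaled by the authors to equal trimmed means as far as the values show (500.0 on each array after removal of 2% at each end). The summary software is not given in the sources used here. Array medians ran from 96.9 to 131, and from 16.0% to 20.2% of probe sets read below 16. The number of arrays limits the precision.

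Genes were named through the platform annotation and RefSeq gene identifiers (34945 probe sets with 1 gene, 932 with several, 34741 found in RefSeq). Each gene was taken as its probe set with the highest mean signal. Values were compared as log2(signal + 16) with limma 3.58.1 in R 4.3.3 (lmFit, eBayes), two-sided, without a block as in the design text, with Benjamini-Hochberg adjustment over 18193 genes or 45037 probe sets. Called means an adjusted p under 0.05. Fold values are on that log scale and understate changes of low signals.

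The members, the gene lists and the tests were chosen with earlier results of these data known. Named genes are all members and genes out of a choice made for each list. The choice was up to 4 called genes with the largest change in the commoner direction and up to 2 in the other. It also held up to 2 uncalled genes with the highest signal. Not all of that choice is named. Muscle and bone genes are given only as lists, and the uncalled Col12a1, Tgfbr1, Tgfbr2, Ltf and Mpo are left out. Col2a1, Col9a1, Col10a1 and Matn3 were shown by array after their values were seen. The other uncalled synovium genes were added later, so that all uncalled genes of that list are named. Ihh and Matn4 of the cartilage list were also added later. The 3 mice gave both regions, and the letters A to C recur, but no label ties a letter to a mouse. After subtracting region means, arrays that share a letter correlated at 0.05, 0.04 and 0.01 (A, B, C) over all genes. For the more strongly expressed genes (mean signal above the median) these correlations were 0.25, 0.12 and 0.085. The block is given where it ends a call. On simulated arrays of 18193 genes for this comparison, 28% of genes changed by 1, 50% by 2 and 88% by 4 (log2) were recovered.

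Alternatives were the pseudocount (1 or 64), quantile normalisation, median centring, scaling to poly-A controls, a filter on signal, an intensity trend, the mean of probe sets, the block and leaving out each array. Scaling without the Trp controls, which read at most 58.5, was chosen after seeing the data.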

Additional observations from a re-analysis of the deposited data

How the results depend on the processing

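Of 7 genes, 3 were called higher. The count was 5 with scaling to the poly-A controls (5 without the Trp controls), 0 with the replicate block and from 0 to 4 when 1 array was left out. Of 8 probe sets, 2 were called, and 0 after quantile normalisation, 5 with the poly-A controls (6 without Trp), 4 with an intensity trend, 0 with the replicate block and from 0 to 3 when 1 array was left out. Over all 45037 probe sets, 1444 were called higher, 1109 after quantile normalisation, 9835 with the poly-A controls (18829 without Trp) and 3420 with a trend. The block called 0 of them, so its 0 says nothing about the members. With 1 array left out the count ran from 210 to 868. The filter on signal left no member gene and 1 probe set, that of Prg4 (1 call), which passed it only through its endosteal signal, so that call supports nothing. No member was called lower in any of these fits. Scx (1456291_x_at) turned to -0.00062 after centring and ran from -0.14 without central A, through -0.12 without endosteal B, to 0.77 without endosteal A. The cause was not tested.

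Over all genes, 1441 were called higher and 731 lower. The counts were 6643 and 73 with the poly-A controls, 10169 and 49 without Trp, 951 and 1786 after centring, 2215 and 1693 with a trend, 143 and 6 with the block, and from 549 to 928 and 101 to 307 with 1 array left out. The median change of all genes was 0.10, and 0.02 after quantile normalisation, -0.16 after centring, 0.72 with the poly-A controls and 0.94 without Trp. Signals below 16 limit what can be said of Scx and of the central levels of Chad and Tnmd.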

Other observations

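By correlation of log2(signal + 16) over the 6 arrays, the genes most like Prg4 were Arhgap5 (r = 0.997) and Akap2 (0.996), those most like Cilp were Sgce and Pfn2 (0.998 each), and those most like Chad were Tmem70 (0.999) and Phkb (0.997). Each was compared with at least 9543 genes. The 6 arrays share the difference between regions, so these values mostly follow it, and high values arise easily among so many genes.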
